A study of Mus musculus with 8 samples.

Results

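The immediate early response genes described here are Fos, Fosb, Jun, Junb, Egr1, Atf3, Ier2, Ier3, Dusp1 and Zfp36, 10 of the 53801 genes in the count table. They were chosen by symbol, and each symbol was matched to its Ensembl identifier. All 10 were among the 13439 genes with enough reads to be tested. RNA came from Paneth cells, the antimicrobial secretory cells at the base of small intestinal crypts, which were sorted by FACS as EpCAM+ Cd24+ cells. All mice, controls included, are described in the study as β-catGOF, a deletion of an exon that stabilizes β-catenin and so activates Wnt signalling. The sample labels give the Mll1 genotype alone. In 4 of them (controls 1 to 4) one allele of Mll1, which encodes a histone H3K4 methyltransferase, remained (Mll1+/-), and in the other 4 (knockouts 1 to 4) both were deleted (Mll1-/-). Each mouse received 1 mg tamoxifen on 3 days, and cells were collected at day 10. In the study's methods recombination was driven by Lgr5-EGFP-IRES-CreERT2, which is active in Lgr5+ stem cells. Animals of both sexes were used and were a few weeks old at induction.

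Immediate early genes are switched on within minutes of a growth factor, cytokine or stress signal and need no new protein synthesis for it. Mitogen-activated protein kinases, or kinases that they activate, phosphorylate factors already bound at the promoters of these genes. Examples are the ternary complex factors with SRF at CArG boxes and Creb at cAMP response elements. The short-lived mRNAs encode transcription factors, among them the Fos and Jun subunits of AP-1, and feedback proteins that shut the signal off. In tissue the same genes also respond to the enzymatic dissociation that precedes sorting, and in these mice crypt cells were released with a trypsin-like enzyme before they were sorted.

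Promoter sequences from RefSeq on GRCm38.p6 were at hand for 8 of the 10 genes, and those of Egr1 and Ier2 were missing from the set used here. The cAMP response element was searched on both strands of the 250 bases before the start, as the full site TGACGTCA and as its half-site TGACG, which overlaps the full site. The stretches below, 5′ to 3′ on the strand of the gene, are those of the AP-1 subunit genes and Dusp1 that held a match outside exons, and capitals mark the matches. They span chr12:85473640-85473889 on the plus strand for Fos, chr7:19310052-19310295 on the minus strand for Fosb, chr8:84978749-84978998 on the minus strand for Junb and chr17:26508520-26508722 on the minus strand for Dusp1, with annotated exon bases left out.
Fos: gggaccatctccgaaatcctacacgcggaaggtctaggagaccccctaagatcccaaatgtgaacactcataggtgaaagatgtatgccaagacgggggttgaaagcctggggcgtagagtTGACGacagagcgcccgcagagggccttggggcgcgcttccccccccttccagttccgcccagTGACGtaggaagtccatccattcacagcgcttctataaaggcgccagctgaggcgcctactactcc
Fosb: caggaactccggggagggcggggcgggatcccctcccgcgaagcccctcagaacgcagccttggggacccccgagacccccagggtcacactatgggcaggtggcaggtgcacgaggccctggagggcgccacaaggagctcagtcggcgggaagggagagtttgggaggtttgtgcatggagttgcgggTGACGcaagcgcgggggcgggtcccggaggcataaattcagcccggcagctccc
Junb: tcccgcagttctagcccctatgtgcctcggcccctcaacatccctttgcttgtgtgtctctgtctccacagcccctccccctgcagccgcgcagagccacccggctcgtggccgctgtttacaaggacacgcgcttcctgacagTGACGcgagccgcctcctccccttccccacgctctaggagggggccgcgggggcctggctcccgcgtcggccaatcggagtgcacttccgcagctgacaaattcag
Dusp1: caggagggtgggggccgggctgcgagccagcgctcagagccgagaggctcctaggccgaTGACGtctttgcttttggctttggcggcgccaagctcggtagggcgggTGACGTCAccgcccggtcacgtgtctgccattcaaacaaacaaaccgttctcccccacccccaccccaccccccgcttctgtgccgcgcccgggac

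A half-site lay in 5 of the 8 promoters (these 4 and Atf3, where it was within an exon and is not shown) and in 17.8% of all 32851 promoters searched. Dusp1 held the full site, which occurred in 1.55% of all promoters. The AP-1 site TGANTCA was found in 0 of the 8, against 6.75% of all promoters. A CArG box was found for Zfp36 (1.47% of all promoters), where all bases searched lay in an annotated exon, a TATA box TATAAA for Fos (12.4%) and a CCAAT box for Jun, Junb and Ier3 (33.8%). Bases farther upstream were not searched, nor were the promoters of Egr1 and Ier2. The pattern TGANTCA also does not match TGACATCA, which the Jun stretch held. These counts therefore do not show that a gene of the set lacks a CArG box or an AP-1 site. A match describes the letters only, and the RNA measurements below do not say which factor was bound.

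Library totals lay between 13037832 and 14380240 counts, and every control total was above every knockout total. Knockout 3 stood apart, with 19662 genes at 1 count or more against 22623 to 26074 in the other libraries, 2.04% mitochondrial counts against 3.26% to 8.78%, and the smallest TMM scaling factor, 0.632 against 0.822 to 1.34. Values are normalized CPM, the counts scaled to a common library size after that factor, and each is given with and without knockout 3 where it matters. A count of 3 corresponded to 0.172 to 0.352 CPM. The Paneth label was checked against 11 Paneth markers, all of which were detected, and their summed level was 258983 to 535662 CPM in controls and 245457 to 716221 CPM in knockouts, with the top value in knockout 3 and at most 314341 CPM in the other knockouts. Markers of immune cells summed to 2.49 to 15.0 CPM in all libraries, and 2 of 11 were high enough to be tested. Of 9 stromal and endothelial markers 1 was. Kmt2a, the gene for Mll1, was at 45.1, 37.2, 24.1 and 22.4 CPM in controls 1 to 4 and at 31.1, 25.7, 38.5 and 28.4 CPM in knockouts 1 to 4 (log2 fold change -0.06, SE 0.24, edgeR adjusted p 0.995). These counts cover all 16670 exon bases and not the deleted part alone, so they do not check the deletion. The genotypes are taken from the labels, and the study's staining for Mll1 protein was not analysed here.

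Fos mRNA was by far the most abundant of the set in sorted Paneth cells. Per kilobase of exon its mean level over the 8 libraries was 77.1 ± 19.7 CPM (SD), above 98.3% of all genes tested. Egr1 (28.4 ± 13.3), Ier2 (27.5 ± 8.16), Jun (20.6 ± 3.69) and Atf3 (19.7 ± 10.1 CPM per kilobase) formed a second tier, each above at least 94.0% of tested genes. For Atf3 this mean joins unlike groups, 12.3 ± 7.94 CPM per kilobase in controls, where Jun was at 18.3 ± 4.01, and 27.2 ± 4.87 in knockouts, where Jun was at 22.9 ± 1.30. Junb at 10.4 ± 2.38, Dusp1 at 9.07 ± 2.84, Zfp36 at 5.04 ± 0.895 and Fosb at 4.85 ± 2.16 CPM per kilobase came next, and Ier3 was lowest at 1.68 ± 0.671, near the middle of all tested genes (above 53.7%). Between neighbours in this order the ranges of mean ± SD were apart for Fos and Egr1, for Dusp1 and Zfp36 and for Fosb and Ier3. For Dusp1 and Zfp36 they overlapped among controls alone, at 7.11 ± 2.45 and 4.90 ± 0.546 CPM per kilobase. Within the second tier, from Atf3 to Junb, from Junb to Dusp1 and from Zfp36 to Fosb they overlapped, so that order is not resolved.

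The question behind the genotype comparison is whether loss of Mll1 altered these transcripts in Paneth cells carrying active β-catenin. A gene was called where edgeR's quasi-likelihood test gave a Benjamini-Hochberg adjusted p no larger than 0.05 together with a log2 change of 0.5 or more either way. Of the 10 genes 0 were called, against 0.186% of all tested genes (0.156% higher and 0.0298% lower in knockouts). DESeq2 and limma-voom (with sample quality weights) also called 0 of the 10, with 138 and 95 of all 13439 genes called. By direction, 9 of the 10 estimates were above 0, as were 50.9% of all tested genes. The median log2 fold change, knockout over control, was 0.44 for the set and 0.01 for all tested genes. An estimate of at least 0.5 was reached by Atf3, Egr1, Dusp1, Ier3 and Ier2 (5 of 10, against 12.9% of all tested genes), with 2 of 10 without control 1, 3 without knockout 3 and 4 to 6 without any other library. An unadjusted edgeR p under 0.05 was reached by 3 of 10 (Atf3, Dusp1 and Ier2), all higher in knockouts. Among all tested genes the share was 6.88%, made up of 4.35% higher and 2.53% lower in knockouts. The control and knockout values overlapped for all 10, whereas they were apart for 4.52% of all tested genes. Without knockout 3 the median of the set was 0.29, 8 of 10 estimates were above 0 (48.5% of 14086 tested genes), and 2 had an unadjusted edgeR p under 0.05 and were higher in knockouts (6.48% of tested genes). That count was 1 without control 1 (4.02% of tested genes), 1 without control 3 (3.82%) and 5 without control 2 (3.58%).

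**Figure D1:**
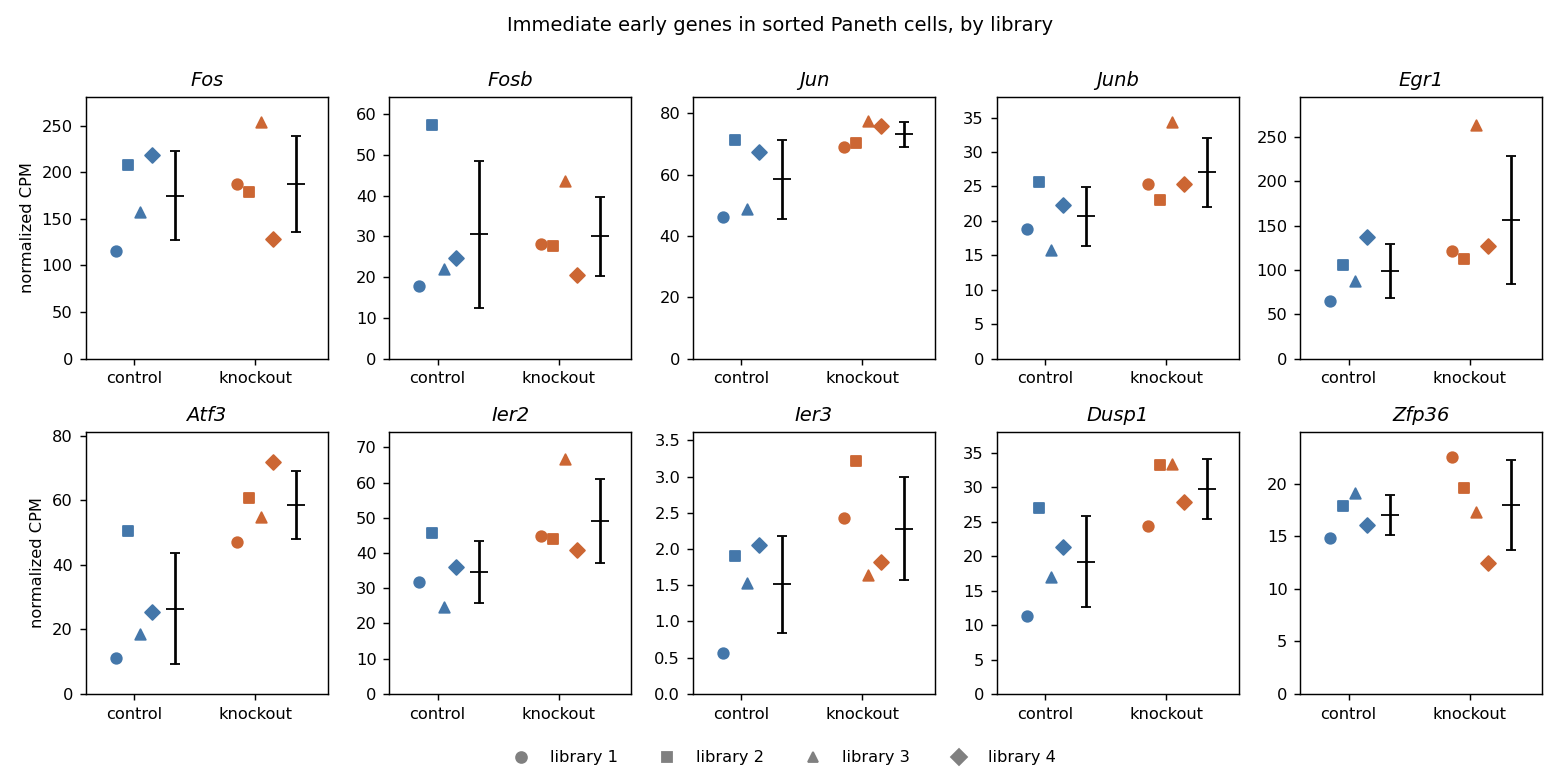
Normalized CPM of each gene in each library, with a separate vertical axis from 0 for every gene. Points are libraries (blue, 4 controls; orange, 4 knockouts; the shape is the library number, which pairs no samples), and bars are mean ± SD. For Atf3 and Dusp1 only control 2 among the controls reaches the knockout values, and for Egr1 knockout 3 stands at 264 CPM.

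Atf3 (ENSMUSG00000026628, chr1:191170296-191218039, minus strand), a stress-induced bZIP factor that pairs with Jun proteins, had the largest estimate of the set. Coordinates of genes here and below are those of mm10. Its level was 11.2, 50.5, 18.4 and 25.5 CPM in controls 1 to 4 and 47.0, 60.7, 54.7 and 71.9 CPM in knockouts 1 to 4. The knockouts were all high and within a narrow band, and the only control in their range was control 2, which exceeded knockout 1. Atf3 averaged 26.4 ± 17.1 CPM in controls against 58.6 ± 10.5 CPM in knockouts (SD over 4 mice). The log2 fold change was 1.15 (SE 0.37), and its edgeR adjusted p was 0.473. The exact two-sided permutation test on the 8 values gave p = 0.0571, in a design whose smallest possible p is 0.0286. Across alternatives the edgeR, DESeq2 or limma-voom adjusted p ran from 0.000117 to 0.762. The lowest came from edgeR with no filter on low counts, the single alternative in which Atf3, or any gene of the set, was called. In that analysis 0.783% of 37039 genes were called. Without control 2 the log2 fold change of Atf3 was 1.67, and without knockout 3 it was 1.18. Within the first library set (controls and knockouts 1 and 2, from one run of label numbers) the log2 difference was 1.12, and within the second it was 1.49.

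Dusp1 (ENSMUSG00000024190, chr17:26505590-26508519, minus strand), a nuclear phosphatase that switches off p38, Jnk and Erk, had a similar pattern. It measured 11.3, 27.0, 17.1 and 21.3 CPM in controls 1 to 4 against 24.4, 33.2, 33.4 and 27.9 CPM in knockouts 1 to 4. Again control 2 was the one control to overlap, being higher than knockout 1. Dusp1 averaged 19.2 ± 6.61 CPM in controls and 29.7 ± 4.36 CPM in knockouts, with a log2 fold change of 0.63 (SE 0.25), an edgeR adjusted p of 0.633 and an exact permutation p of 0.0571. The log2 difference was 0.67 in the first library set and 0.65 in the second, and 0.57 over all libraries but knockout 3.

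Egr1 (ENSMUSG00000038418) encodes a zinc finger factor that is a classical target of Erk signalling. Its level was 64.4, 105, 87.8 and 137 CPM in controls 1 to 4 and 122, 113, 264 and 126 CPM in knockouts 1 to 4. Knockout 3 was 1.93-fold above the next library, and the other knockouts lay within the range of the controls. The means of 98.6 ± 30.5 and 156 ± 71.9 CPM gave a log2 fold change of 0.66 (SE 0.31) with an edgeR adjusted p of 0.729. Without knockout 3 this estimate was 0.28.

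Ier2 (ENSMUSG00000053560, chr8:84661331-84662852, minus strand), a nuclear protein of the immediate early class, also took its highest value in knockout 3. It was at 31.8, 45.8, 24.6 and 36.1 CPM in controls 1 to 4 and at 44.8, 44.1, 66.7 and 40.8 CPM in knockouts 1 to 4. All knockouts were above the control median, and control 2 was above all knockouts except knockout 3. The log2 fold change was 0.50 (SE 0.23), with an edgeR adjusted p of 0.702, and it was 0.32 without knockout 3. Ier3 (ENSMUSG00000003541, chr17:35821684-35822923, plus strand), a regulator of apoptosis and Erk signalling, had few reads, 9 to 26 counts in controls and 14 to 56 in knockouts. Its means were 1.51 ± 0.669 and 2.28 ± 0.711 CPM, and the log2 fold change of 0.61 (SE 0.47) had an edgeR adjusted p of 0.913. It was 0.33 without control 1 and 0.39 without knockout 2. The log2 difference for Ier3 was 0.84 in the first library set and -0.02 in the second.

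Among the Jun subunits of AP-1, Jun (ENSMUSG00000052684, chr4:95049034-95052222, minus strand) was tight in the knockouts and split in the controls. It was at 46.1, 71.3, 48.9 and 67.5 CPM in controls 1 to 4 and at 69.0, 70.2, 77.5 and 75.8 CPM in knockouts 1 to 4. Controls 1 and 3 were low, while controls 2 and 4 were close to the knockouts. The means were 58.5 ± 12.8 and 73.1 ± 4.16 CPM, with a log2 fold change of 0.32 (SE 0.18) and an edgeR adjusted p of 0.826. Junb (ENSMUSG00000052837, chr8:84974484-84978718, minus strand), which often restrains Jun, was at 18.9, 25.6, 15.8 and 22.3 CPM in controls 1 to 4 and at 25.3, 23.1, 34.3 and 25.4 CPM in knockouts 1 to 4. Control 2 lay above every knockout but knockout 3, and the log2 fold change of 0.38 (SE 0.20, edgeR adjusted p 0.797) was 0.25 without knockout 3. A part of the exon bases is shared with another gene for Jun (7.28%, Junos), Junb (7.52%, Prdx2) and Zfp36 (3.60%, Gm44710), and the strand setting of the counting is not given in the sources used here.

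The estimates of both Fos subunits were close to 0. Fos (ENSMUSG00000021250, chr12:85473890-85477273, plus strand) was at 116, 208, 158 and 219 CPM in controls 1 to 4 and at 188, 179, 254 and 129 CPM in knockouts 1 to 4. The ranges of the genotypes overlapped widely, with the lowest value in a control and the highest in knockout 3, and the log2 fold change was 0.10 (SE 0.25, edgeR adjusted p 0.987). For Fosb (ENSMUSG00000003545, chr7:19302696-19310051, minus strand), a close relative of Fos, the levels were 17.9, 57.4, 22.1 and 24.6 CPM in controls 1 to 4 and 28.3, 27.6, 43.7 and 20.6 CPM in knockouts 1 to 4. The highest value was that of control 2, above all knockouts, and the log2 fold change was -0.03 (SE 0.35, edgeR adjusted p 0.997). It was 0.47 without control 2 and -0.26 without knockout 3, and the estimate for Fos was -0.09 without knockout 3. Zfp36 (ENSMUSG00000044786, chr7:28376784-28380253, minus strand), whose protein binds AU-rich elements and hastens decay of short-lived mRNAs, averaged 17.0 ± 1.89 CPM in controls and 18.0 ± 4.28 CPM in knockouts (log2 fold change 0.08, SE 0.21, edgeR adjusted p 0.987). Its log2 difference was 0.35 in the first library set and -0.24 in the second.

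**Figure D2:**
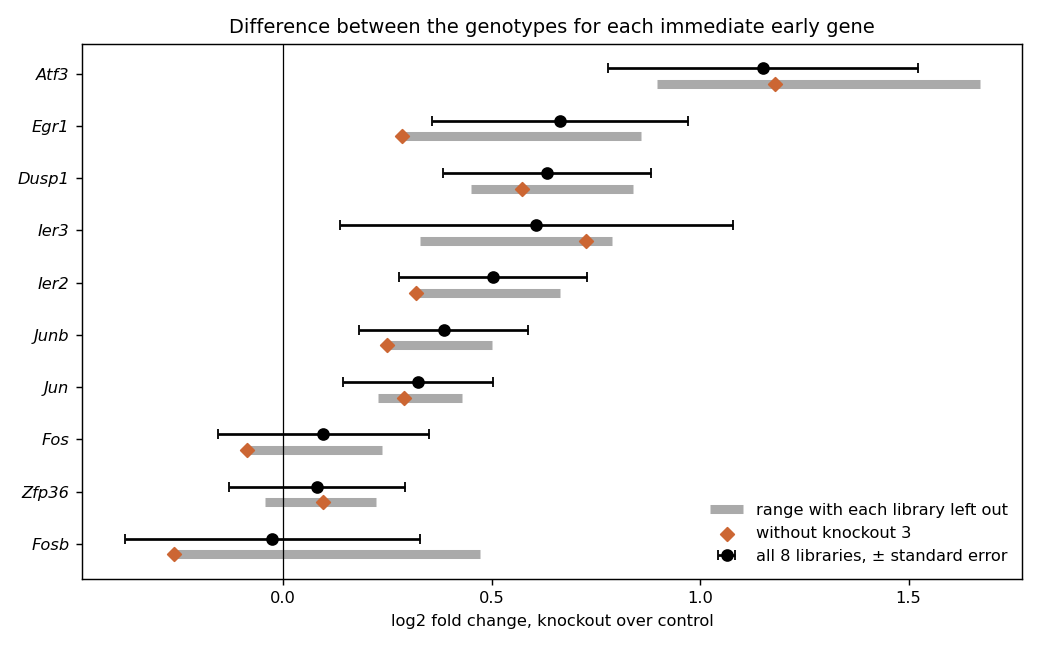
Log2 fold change, knockout over control, of each gene from the edgeR model over all 8 libraries (black points, ± SE), the range with each library left out in turn (grey bars) and the value without knockout 3 (orange diamonds). Atf3 keeps the largest estimate, 0.90 to 1.67 over the libraries left out, while Egr1 falls to 0.28 without knockout 3 and the ranges of Fos, Fosb and Zfp36 cross 0.

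The spread between mice was itself uneven. Between the highest and the lowest library Atf3 differed 6.41-fold, Ier3 5.70-fold and Egr1 4.10-fold, but Jun 1.68-fold and Zfp36 1.82-fold. The coefficient of variation of Atf3 was 64.8% among controls and 17.9% among knockouts, that of Jun 21.9% and 5.69%, and that of Dusp1 34.5% and 14.7%. For Zfp36 the order was the other way, 11.1% among controls and 23.8% among knockouts. Egr1 had 30.9% among controls and 46.0% among knockouts, but 5.79% among knockouts without knockout 3. These differences in spread were not tested.

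Single libraries carried much of this pattern. Control 1 was the lowest library for 7 of the 10 genes and control 3 for 2, while knockout 3 was the highest for 6. Summed over the set, levels were 333, 611, 413 and 571 CPM in controls 1 to 4 and 574, 573, 847 and 532 CPM in knockouts 1 to 4, so the groups overlapped. As a share of raw counts, with no scaling factor, the set took 0.0382%, 0.0559%, 0.0339% and 0.0503% in controls 1 to 4 and 0.0734%, 0.0766%, 0.0535% and 0.0647% in knockouts 1 to 4. On that scale only knockout 3 fell within the controls, and there the median of all tested genes was itself shifted to a log2 fold change of 0.25, with the set at 0.62. In bulk samples a change in the number of expressing cells and a change in RNA per cell cannot be told apart.

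The make-up of the summed counts does not depend on the scaling factor. Fos supplied 34.8%, 34.1%, 38.2% and 38.3% of the reads of the set in controls 1 to 4 and 32.7%, 31.2%, 30.0% and 24.2% in knockouts 1 to 4. Every control was above every knockout, a pattern picked out after its values were seen and not tested. No background rate is given for shares that separate the groups. A share also falls when other genes of the set rise. The CPM of Fos itself overlapped between the genotypes (log2 fold change 0.10, SE 0.25), so its lower share does not show a lower level of Fos. Atf3 supplied 3.37%, 8.27%, 4.46% and 4.46% in controls 1 to 4 and 8.20%, 10.6%, 6.47% and 13.5% in knockouts 1 to 4, and the groups overlapped through control 2. In knockout 3 the share of Egr1 was 31.1%, against 17.3% to 23.9% in all other libraries.

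**Figure D3:**
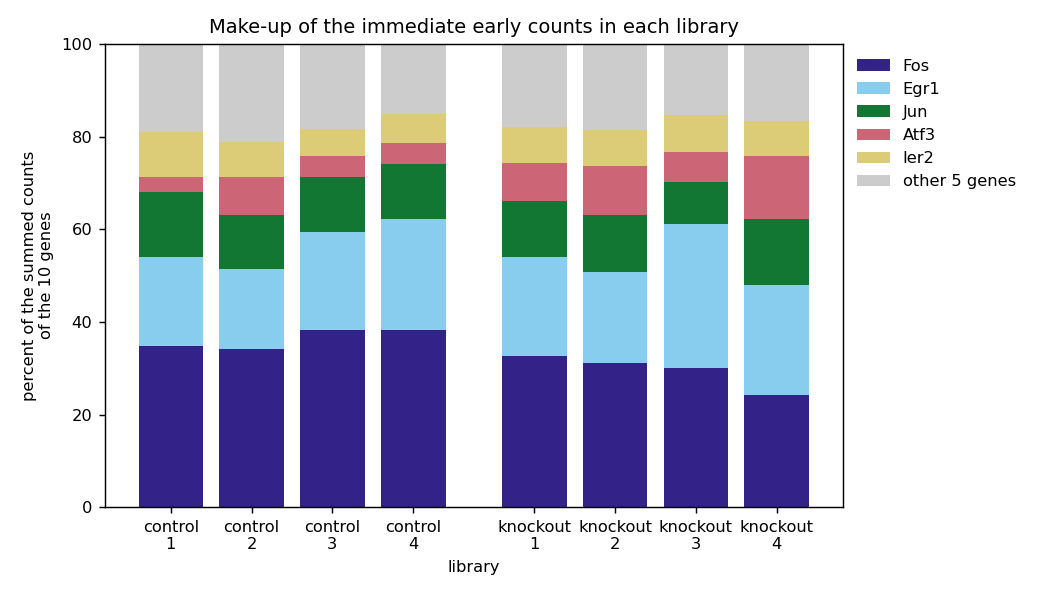
Share of the summed raw counts of the 10 genes held by each gene, in percent, for every library. Fos takes 34.1% to 38.3% in controls and 24.2% to 32.7% in knockouts, and Egr1 is widest in knockout 3 at 31.1%.

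Levels of most of these genes were positively correlated from mouse to mouse. Over the 8 libraries, on log2(CPM + 1), Pearson's r was above 0 for 43 of the 45 pairs, with a median of 0.62 (Spearman's rho 0.55). Without control 1 it was above 0 for 35 pairs, with a median of 0.40. Correlations between pairs of other genes were not computed, so these counts have no background to be set against. For 6 pairs r had an exact permutation p, adjusted over the 45 pairs, of at most 0.05, and for 3 of these rho did too. Junb and Ier2 had r = 0.98 and rho = 0.93, with adjusted exact permutation p of 0.010 and 0.033, and r was 0.89 without the 2 libraries farthest from the median of Junb and 0.97 with values centred within genotype. Atf3 and Dusp1 followed, with r = 0.95 (adjusted exact permutation p 0.010) and rho = 0.90 (0.051), and r was 0.76 without 2 libraries and 0.90 when centred. For Jun and Dusp1 r was 0.92 and rho 0.93, and for Jun and Junb they were 0.87 and 0.93, with adjusted exact permutation p for rho of 0.033 in both. Jun also passed for r with Atf3 (0.93) and Ier2 (0.82), though not for rho. These values share library depth, scaling factor and the unequal position of control 1 and knockout 3. The number of pairs that passed was 1 after centring within genotype, 0 without control 1, control 3 or control 4, and 5 without knockout 3. With values centred within library set the median r was 0.66 and 9 pairs passed, and no correlation was computed over the 4 libraries of a single set.

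Zfp36 stood outside this group, with a median r of 0.09 to the other genes and a range of -0.03 to 0.48. Fos and Fosb were closer to each other (r = 0.77) than Fos was to Atf3 (0.41). The difference between these correlations was not tested.

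**Figure D4:**
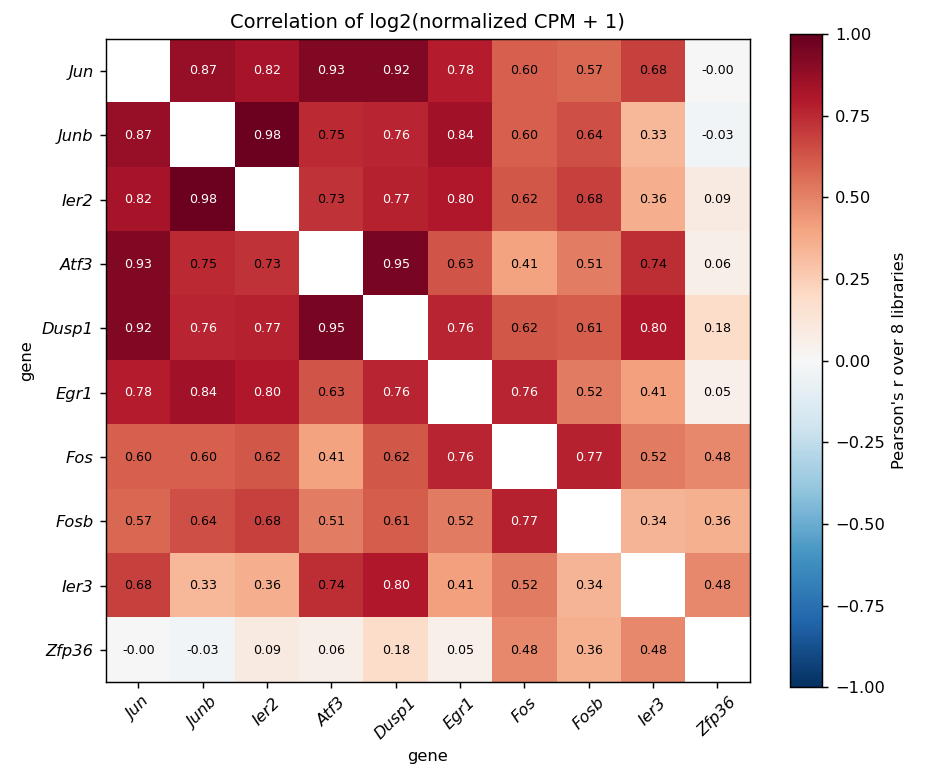
Pearson's r between each pair of the 10 genes over 8 libraries, on log2(normalized CPM + 1). Jun, Junb, Ier2, Atf3, Dusp1 and Egr1 have values of 0.63 to 0.98 with each other, the highest for Junb and Ier2, while pairs with other genes reach 0.80 (Dusp1 and Ier3), and the row of Zfp36 runs from -0.03 to 0.48.

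Genes with the most similar pattern were sought among 4320 genes of at least 10 CPM on average, by r over the 8 libraries with the mean log2 level of the set. Nr4a1, an immediate early orphan nuclear receptor, was first (r = 0.96), followed by Blvrb (0.93), Ptpn2 and Ppp1ca (both 0.92) and Hbp1 (0.91). The most opposite were Gmcl1 (-0.96), Thoc2 and Mrpl46 (both -0.93), Gpbp1l1 (-0.92) and Clock (-0.91). Being the ends of a ranking over so many genes in 8 libraries, these values are descriptive.

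Other genes of the pathway were followed in lists taken by function. Of 17 other immediate early transcription factors 15 were tested and 0 called, 13 had estimates above 0, and the median log2 fold change was 0.34. The unadjusted edgeR p was under 0.05 for Nr4a1, Klf6 and Egr2, picked out after their values were seen, all higher in knockouts (3 of 15, against 4.35% of all tested genes). Without knockout 3 it was 7 of 15, against 6.48%, and without control 3 it was 5 of 15 with a list median of 0.55. Nr4a1 was at 4.83, 16.5, 8.17 and 10.8 CPM in controls 1 to 4 and at 18.6, 18.0, 35.7 and 19.3 CPM in knockouts 1 to 4. Its groups did not overlap, which held for 2.59% of all tested genes in this direction. The log2 fold change of 1.18 (SE 0.36) had an edgeR adjusted p of 0.422.

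Among 26 other rapidly induced effector and feedback genes 24 were tested and 0 called, 20 were above 0, and the median was 0.37. An unadjusted edgeR p under 0.05 with a higher level in knockouts was found for 4 of 24, against 4.35% of all tested genes, and for 9 of 25 without knockout 3, against 6.48%. Gadd45a, a growth arrest gene picked out after its values were seen, had such a p with a lower level in knockouts (log2 fold change -0.58, edgeR adjusted p 0.671). Errfi1, a feedback inhibitor of the EGF receptor, was at 4.32, 9.36, 7.18 and 7.50 CPM in controls 1 to 4 and at 15.4, 15.0, 16.0 and 10.7 CPM in knockouts 1 to 4, and it did not pass the adjusted threshold (log2 fold change 1.01, SE 0.26, edgeR adjusted p 0.316). Its groups were apart, as were those of 2.59% of all tested genes in this direction. Mapk phosphatases and feedback inhibitors, 10 tested of 12, had 0 called, 8 above 0 and a median of 0.41. Spred1, which blocks activation of Raf by Ras, was low but apart in the groups, at 1.94, 2.06, 2.69 and 2.68 CPM in controls 1 to 4 and 11.0, 9.02, 4.82 and 4.37 CPM in knockouts 1 to 4 (log2 fold change 1.65, SE 0.36, edgeR adjusted p 0.161). It was called in the DESeq2, limma-voom and no-filter analyses and in edgeR without knockout 3.

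Upstream kinases and transcription factors, which relay the signal, had a median of -0.08 with 7 of 19 tested genes above 0 and 0 called. Without knockout 3, 10 of 20 were above 0. Elk4, a ternary complex factor, had the smallest p of these, with a log2 fold change of 0.55 (SE 0.21, edgeR adjusted p 0.627). The other AP-1 and bZIP partners had 5 of 8 tested genes above 0, 0 called and a median of 0.07. That median was -0.06 without control 1 and 0.17 without control 4. An unadjusted edgeR p under 0.05 with a higher level in knockouts was found for 0 of 8, and for 2 of 8 without knockout 3 (6.48% of tested genes). Over all 8 libraries Crem, a cAMP-responsive factor, had the smallest p of these partners, with an estimate of 0.95 (SE 0.47, edgeR adjusted p 0.774).

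**Figure D5:**
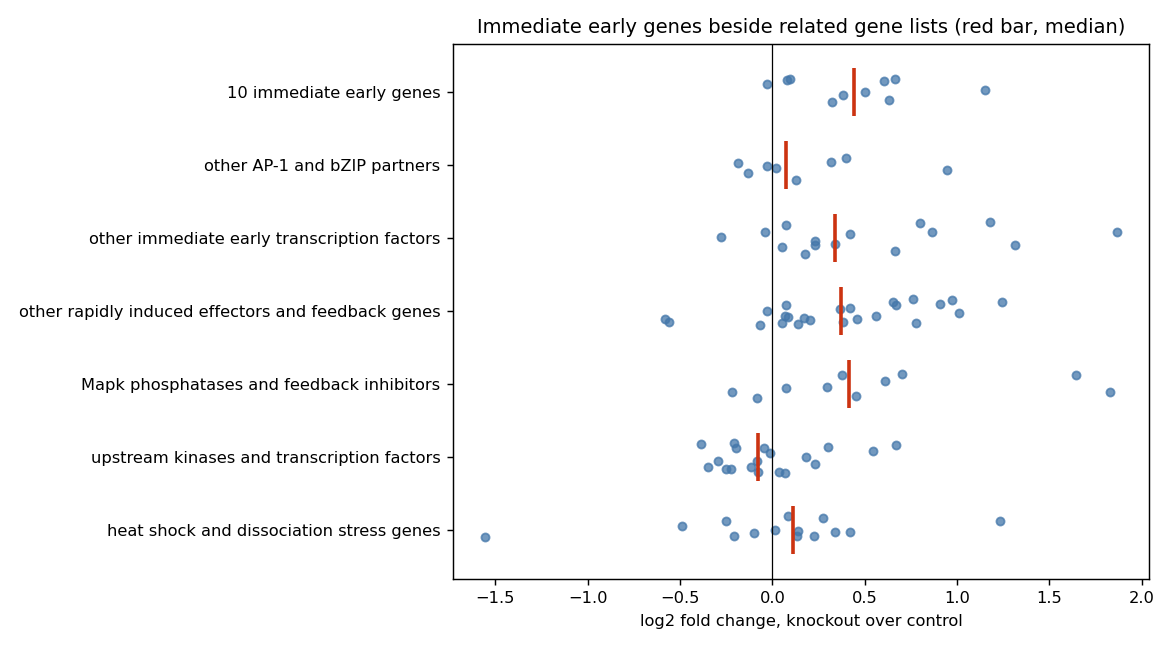
Log2 fold change, knockout over control, of every tested gene (points) in the set and in 6 lists of related genes, with the median of each as a red bar. The medians of the set and of the 3 lists of induced genes lie between 0.34 and 0.44, and those of upstream factors, AP-1 partners and heat shock genes between -0.08 and 0.11.

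Heat shock and dissociation stress genes were examined because the dissociation step can induce them along with the set. Of 14 tested 9 were above 0 and the median was 0.11, while without knockout 3 it was 5 of 14 with a median of -0.03, and with limma-voom 7 of 14 and -0.01. Without control 3 it was 10 of 15 with a median of 0.19. Their summed level was 767 to 1071 CPM in controls and 857 to 1094 CPM in knockouts, with the highest value in knockout 3. The part of dissociation in the levels of the set was not tested. Hspa8, the constitutive Hsp70 chaperone, fell, from 70.2, 49.2, 57.1 and 45.5 CPM in controls 1 to 4 to 14.3, 15.0, 28.1 and 18.4 CPM in knockouts 1 to 4. The groups were far apart, while the groups of 4.52% of all tested genes were apart in either direction. The log2 fold change of Hspa8 was -1.56 (SE 0.24), with an edgeR adjusted p of 0.0333. It was the one gene of all these lists to be called, and the call was kept without knockout 3 and lost without any other single library.

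Markers of other epithelial cells are given beside these results. The 7 enteroendocrine markers all had estimates below 0 (median -1.96), with summed levels of 154 to 661 CPM in controls and 19.1 to 179 CPM in knockouts, and so did the 5 tuft markers (median -0.94, 154 to 517 CPM against 84.5 to 335 CPM). Of these 12 genes 0 were called. An unadjusted edgeR p under 0.05 with a lower level in knockouts was found for 5 of 7 enteroendocrine markers, 0 of 5 tuft, 3 of 6 stem cell, 2 of 6 enterocyte and 2 of 8 goblet markers, against 2.53% of all tested genes. Of the stem cell markers 1, the Wnt target Axin2, had such a p with a higher level (log2 fold change 0.90, edgeR adjusted p 0.505), which was the only one in that direction in the marker lists. The median was -0.83 for 6 tested enterocyte markers, -0.44 for 6 stem cell markers, 0.03 for 8 goblet markers and -0.11 for the Paneth markers. Stem cell markers summed to 703 to 1520 CPM in controls, 273 CPM in knockout 3 and 634 to 952 CPM in the other knockouts. For enterocyte markers these sums were 146 to 329, 91.0 and 161 to 245 CPM. For goblet markers they were 9263 to 17746, 18981 and 7871 to 10512 CPM. The part of these other cells in the levels of the 10 immediate early genes was not tested.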

How the data were processed

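RNA of sorted Paneth cells from 4 control and 4 knockout mice was sequenced by the authors with a Smart-seq2 protocol, which amplifies cDNA by PCR without molecular identifiers, so that counting errors cover only the reads. Alignment by the authors was to mm10 with GSNAP, and reads with a single location were assigned to Ensembl genes by featureCounts 1.6.3, and the submitters' processing notes also name bcl2fastq 2.19.1. The deposited values are raw counts without normalization. The labels place each library in an Mll1 genotype. That all mice were β-catGOF is taken from the study, whose paragraph on sorting names the Mll1 genotypes without it. Library numbers are names, and since 1 animal number recurs in a control and a knockout (both numbered 4), no pairing was made. The study describes the genotypes as littermates without saying which. P-values measure the spread between these libraries.

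The 92 spike-in rows were left out, and 53620 of 53801 identifiers matched a symbol. From the counts, TMM factors and robust quasi-likelihood fits were computed in R 4.3.3 with edgeR 4.0.16 for genes passing filterByExpr (minimum count 10, minimum total 15), and p-values were adjusted over all 13439 genes. A standard error is the log2 fold change over the square root of F. DESeq2 1.42.0, limma 3.58.1 (voom with sample quality weights), other size factors, other filters, library set as a block and each library left out were the alternatives, and calls and fold changes scaled by library totals alone and correlations centred within library set were added after seeing the data. Functions were tested on simulated data. Permutation tests enumerated all splits. The genes and lists were chosen with earlier results of these data known. Named genes are the 10, from each other list those called or, if none, that with the smallest p, and the 5 most and least similar to the set. Klf6, Egr2, Gadd45a and Axin2 were named after their values were seen. Exon lengths and overlaps came from the Ensembl exon coordinates deposited with the counts, and promoters from RefSeq on GRCm38.p6.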

Additional observations from a re-analysis of the deposited data

Results flagged for a closer look

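In 3 of 20 groups of 4 libraries examined for the 10 genes, 1 library lay far from the other 3, where chance gives about 1. Dixon's test sets the gap to the nearest value against the range of the group. Fosb was at 57.4 CPM in control 2 (gap 0.830 of the range). Egr1 was at 264 CPM in knockout 3 (0.909), and Ier2 was at 66.7 CPM in the same library (0.843). Knockout 3 is the library with the fewest detected genes and the smallest scaling factor, and the part of these in its values was not tested.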

How the results depend on the processing

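Of the alternatives run, no filter on low counts changed the calls among the 10 genes, from 0 to 1 (Atf3). Over all tested genes 25 were called (21 higher and 4 lower in knockouts), 290 with no filter, 13 with at least 10 counts in every library, 138 with DESeq2, 95 with limma-voom and sample quality weights, 15 with library totals alone, 38 at 10% false discovery rate with no limit on the fold change, and 10 to 152 with each library left out, the highest without knockout 3 and 10 to 15 without any 1 of the controls or knockout 2. With no filter 1 other immediate early transcription factor, 1 effector gene and 1 Mapk feedback gene were called. DESeq2 called 1 effector and 1 Mapk feedback gene, and limma-voom 1 Mapk feedback gene. With each library left out 0 to 1 effectors, 0 to 2 Mapk feedback genes and 0 to 1 heat shock genes were called, and the highest counts came without knockout 3. The sign of the log2 fold change reversed for Fos with limma-voom (-0.021) and between -0.088 and 0.24 over libraries left out, for Fosb with the library set as a block (0.0072) or library totals alone (0.15) and between -0.26 and 0.47 over libraries left out, and for Zfp36 between -0.043 and 0.22 over libraries left out. The number of correlated pairs was 6, 1 after centring within genotype, 13 with library totals alone and 0 to 7 over libraries left out. The causes of these changes were not tested. Ier3 could not be tested at 10 counts in every library. No paired analysis was possible because the labels do not say which mice were littermates. Depth limits Ier3 most, with 9 counts in control 1.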
